A study of Mus musculus with 16 samples.

Results

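The genes described here are 36 mouse genes of fatty acid synthesis and triglyceride storage, taken as a named list and followed through liver RNA sequencing of 16 mice. Each gene was represented by the RefSeq transcript row with its highest mean count in the deposited table, which gave 36 of 24970 genes. They were sorted by role into 10 genes of acetyl-CoA and fatty acid synthesis, 7 of desaturation and elongation, 3 transcription factors, 8 of triglyceride assembly and 8 of the lipid droplet, fatty acid uptake and lipolysis. Of these 36, 35 held enough counts to be tested, among 12913 genes tested in all. Mogat1, a monoacylglycerol acyltransferase gene, was not tested. It had 23 counts over all 16 libraries.

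The mice fell into 4 groups of 4. Wild-type mice were C57BL/6 Ntac animals given vehicle (2% DMSO in corn oil) or TCPOBOP, a compound that strongly activates mouse CAR, the constitutive androstane receptor. Mice of the strain called humanized PXR-CAR-CYP3A4/3A7 received the same vehicle or TCPOBOP. The dose was 3 mg/kg in 2 administrations with 24 h between them, and liver was taken after 48 h of treatment. All 4 groups were thus dosed with an oil vehicle or with compound, and no group was left undosed. The humanized strain carries changes at the PXR, CAR and CYP3A loci together, so the strain comparison cannot assign a difference to 1 of them, and the sources used here do not name its genetic background. The labels give n = 4 per group without naming the animals, so the p-values measure the spread between these libraries. The study's title concerns effects of TCPOBOP on lipid metabolism outside its receptor.

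In hepatocytes, citrate leaves mitochondria and is cleaved to acetyl-CoA, which acetyl-CoA carboxylase and fatty acid synthase turn into palmitate. Elongases and desaturases lengthen and unsaturate the product, and acyltransferases attach fatty acids to glycerol to form triglyceride, which is stored in lipid droplets or secreted. Insulin acts on this program through SREBP-1c (Srebf1) and glucose through ChREBP (Mlxipl), and lipases at the droplet release the stored fat.

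Wild-type TCPOBOP livers were sequenced deepest, with totals between 30228724 and 37998473 counts. Totals lay between 11827994 and 19483951 for wild-type livers on vehicle. The humanized livers had 12612610 to 16904182 (vehicle) and 14019983 to 16755802 counts (TCPOBOP). Replicates 1 to 4 are listed in that order. Levels are CPM, which are counts scaled to library size with TMM factors, given per library or as mean ± SD over the 4 libraries of a group, and log2 changes ± SE. Mouse Nr1i3, the CAR gene, was at 93.4 to 107 CPM in wild-type vehicle and 1.63 to 2.70 CPM in humanized vehicle livers, and the PXR gene Nr1i2 at 109 to 195 and 17.8 to 20.7 CPM, so the mouse genes were low where the label says humanized. The CAR target Cyp2b10 was at 2871 to 3561 CPM in wild-type TCPOBOP livers against 16.4 to 89.9 CPM with vehicle. In humanized livers Cyp2b10 was at 63.3 to 201 CPM with TCPOBOP against 14.9 to 23.1 CPM with vehicle. Of 8 hepatocyte markers, none was at 0 in all libraries, and their summed level was 26460.1 to 96291 CPM. The summed level of 8 adipocyte markers was 6.65 to 26.9 CPM, with Adipoq at 0 to 0.571 CPM over the 16 libraries. Along the second principal component, humanized TCPOBOP replicates 3 and 4 stood at 14.4 and 16.8 and replicates 1 and 2 at -18.8 and -3.14. Fewer cells of a type and less RNA per cell cannot be told apart in these bulk samples.

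Of the 35 tested genes, 19 passed an adjusted p of 0.05 in at least 1 of 4 comparisons (edgeR quasi-likelihood test, Benjamini-Hochberg adjustment over all 12913 genes). The number was 13 between the strains under vehicle, 8 for TCPOBOP in wild-type liver, 5 for TCPOBOP in humanized liver and 3 for the difference between the TCPOBOP effects. The first comparison shares its vehicle libraries with the TCPOBOP comparisons, so the calls of these comparisons are not independent. Where the groups of a gene are said below not to overlap, this describes its libraries and adds no support to its call. The share of all tested genes without overlap was not counted. The genes and lists were chosen with earlier results of these data known. Shares of a list set beside those of all tested genes are therefore descriptions and no test of the list.

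**Figure D1:**
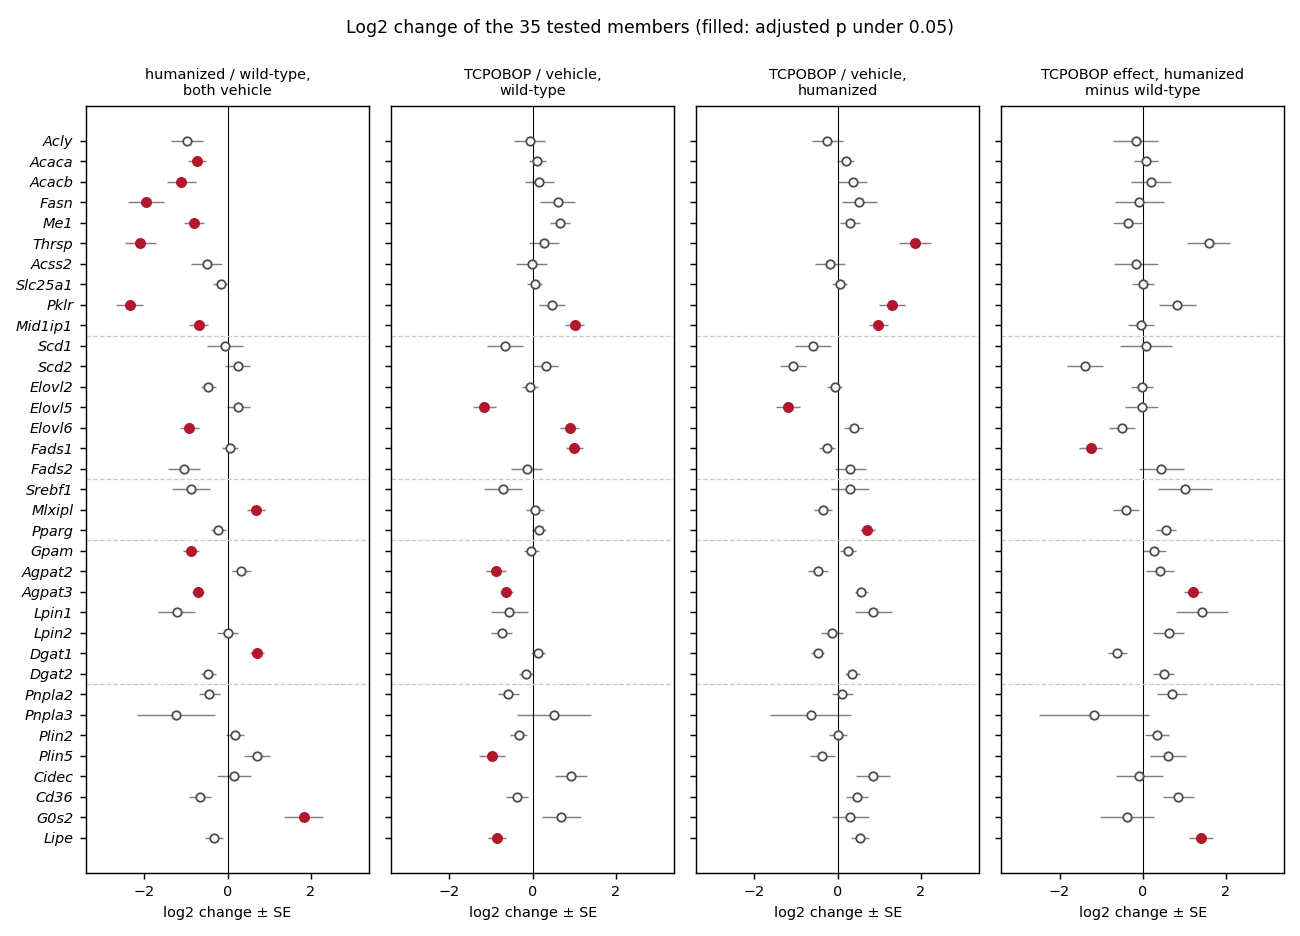
Log2 change ± SE (x axes) of the 35 tested genes (rows, in 5 groups by role) in the 4 comparisons, with genes at an adjusted p under 0.05 filled. The strain panel holds 10 filled genes to the left and 3 to the right of 0, and the panels for TCPOBOP hold 8 filled genes in wild-type and 5 in humanized liver.

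Per kilobase of transcript, which allows levels of different genes to be compared, Scd1 stood highest in wild-type vehicle livers among the 34 genes with a transcript length. Scd1 encodes stearoyl-CoA desaturase and was at 1343 CPM per kb. It was followed by Thrsp at 754 and the triglyceride-forming Dgat2 at 318 CPM per kb. Fasn stood at 149 and Acly at 136 CPM per kb, whereas Pparg (3.10), Cidec (1.22) and Mogat1 (0.187) were at the low end. Scd2, a close relative of Scd1, was at only 2.02 CPM per kb, and the handling of reads that such relatives share is not stated in the labels.

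Individual livers differed widely for a few of these genes. Pnpla3, a lipid droplet acylhydrolase, was at 26.3, 61.1, 0.563 and 0.364 CPM in wild-type vehicle replicates 1 to 4, so that 2 libraries were at or above 26.3 CPM and the other 2 were below 1 CPM. Srebf1, the SREBP-1c gene, was at 794, 640.5, 194 and 124 CPM in the same livers, and Fasn, the fatty acid synthase gene, at 1958, 2799, 501 and 740.3 CPM. Replicates 1 and 2 were the higher ones for all 3 genes. Wild-type vehicle replicate 2 was the highest of its group for 22 of 35 genes (40.7% of all tested genes) and replicate 3 the lowest for 16 (18.6%). Humanized vehicle replicate 2 was the highest of its group for 18 of 35 genes (28.9% of all tested genes) and replicate 3 the lowest for 20 (23.2%). In wild-type TCPOBOP livers, replicate 2 held the highest value for 31 of 35 genes, while it was highest for 36.3% of all tested genes. Humanized TCPOBOP replicate 1 was the lowest of its group for 17 of 35 genes (34.3% of all tested genes) and replicate 3 the highest for 22 (22.6% of all tested genes). Scd1 ran there at 1000.4, 3985, 6246 and 5217 CPM. The highest level was at least 2-fold the lowest for 42.9% of the 35 genes in wild-type vehicle livers, close to the 39.4% of all tested genes, and for 25.7% against 10.3% in wild-type TCPOBOP livers. The corresponding shares were 28.6% against 15.6% in humanized vehicle and 48.6% against 46.7% in humanized TCPOBOP livers.

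**Figure D2:**
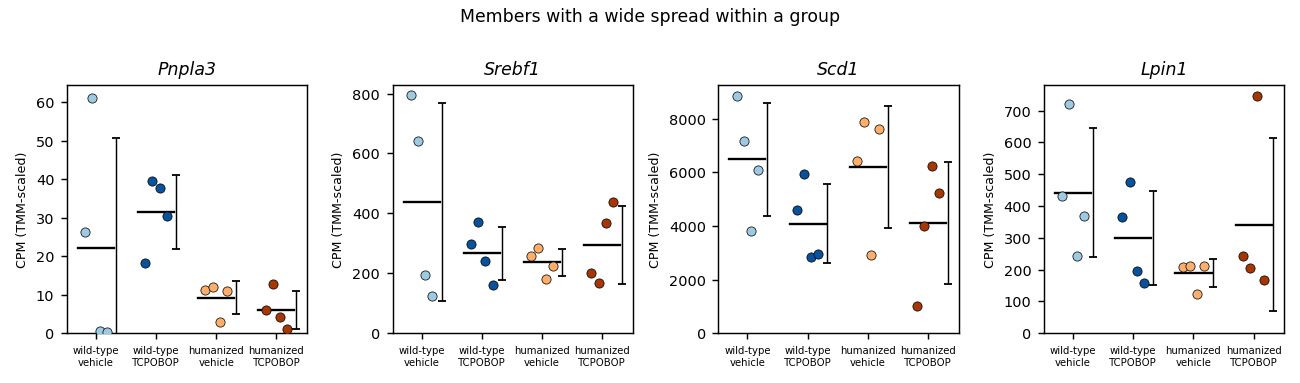
CPM (y axes, from 0) of Pnpla3, Srebf1, Scd1 and Lpin1 in the 16 libraries (points, replicates 1 to 4 from left to right), with the group mean (line) and SD (bar, cut at 0 where it would pass below). Pnpla3 was at 0.364 to 61.1 CPM in wild-type vehicle livers, and Lpin1 at 243, 206, 747 and 168 CPM in humanized TCPOBOP livers.

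The comparison of vehicle-dosed strains asks how the humanized liver differs before TCPOBOP. Of the 35 genes, 10 were lower in humanized than in wild-type vehicle livers, with 3 higher. These are 28.6% and 8.57% of the genes, where 8.95% of all tested genes were lower and 7.11% higher. The share of higher genes was thus near the background. The median log2 difference of the 35 genes was -0.47, against 0.0045 for all tested genes. The lower genes lay mostly in fatty acid synthesis, where 7 of 10 genes were lower and none higher.

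Fatty acid synthesis genes carried the largest of these differences. Pklr, the liver pyruvate kinase that ends glycolysis and a classical ChREBP target (NM_013631, chromosome 3, 89136122 to 89146815, mm10), was at 499, 364, 156 and 258 CPM in wild-type vehicle replicates 1 to 4 and at 60.4, 82.4, 53.4 and 54.5 CPM in humanized ones. All humanized values lay below all wild-type values, a 5.09-fold difference (-2.35 ± 0.33, adjusted p = 0.000673). Thrsp, the Spot 14 gene that responds to thyroid hormone and carbohydrate (NM_009381, chromosome 7, 97412933 to 97417550), was at 1139, 1617, 311 and 781 CPM and at 222, 279.9, 187 and 214 CPM. Its groups did not overlap either (4.26-fold lower, -2.09 ± 0.38, adjusted p = 0.00404). Fasn (NM_007988, chromosome 11, 120805958 to 120825166) was at 412, 463, 267 and 395 CPM in the humanized group, below the wild-type values given above, again without overlap (3.90-fold lower, -1.96 ± 0.43, adjusted p = 0.0103).

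The 2 acetyl-CoA carboxylase genes were lower as well. Acaca was at 62.5, 93.6, 49.9 and 61.3 CPM in wild-type and 47.9, 38.6, 29.4 and 44.5 CPM in humanized vehicle livers, without overlap (-0.74 ± 0.21, adjusted p = 0.0264). Acacb, whose product sits at mitochondria, was at 243, 319, 98.6 and 133 and 96.2, 112, 49.1 and 110.4 CPM (-1.11 ± 0.35, adjusted p = 0.0395). For Acacb only 2 of 4 humanized libraries lay below all wild-type ones. Malic enzyme (Me1), a source of NADPH, was at 145, 72.7, 110.0 and 146 and 61.2, 72.4, 64.8 and 70.96 CPM, where the highest humanized value lay just below the lowest wild-type value (-0.81 ± 0.24, adjusted p = 0.0321). Mid1ip1, a partner of Thrsp that promotes carboxylase assembly, was at 61.9 ± 15.5 and 38.3 ± 5.78 CPM (-0.69 ± 0.23, adjusted p = 0.0478, 3 of 4 libraries below). Acly, the enzyme that cleaves citrate (-0.98, adjusted p = 0.081), Acss2, which activates acetate (-0.51, adjusted p = 0.338) and the citrate carrier gene Slc25a1 (-0.17, adjusted p = 0.539) did not pass.

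Several of these calls were lost in fits that left out 1 library, each library in turn. Acaca lost its call without wild-type vehicle replicate 2 (0.0542) and humanized vehicle replicates 3 (0.087) and 4 (0.0541), where the adjusted p is given in parentheses. Acacb lost its call without wild-type vehicle replicates 1 (0.088) and 2 (0.0989), wild-type TCPOBOP replicate 3 (0.0516) and humanized vehicle replicates 1 (0.0898), 3 (0.117) and 4 (0.0685). Me1 lost its call without wild-type vehicle replicates 1 (0.079) and 4 (0.0803) and humanized vehicle replicates 1 (0.0919), 3 (0.0812) and 4 (0.0702). The call of Mid1ip1 was lost in 9 of the 16 fits that left out 1 library, in all but those without wild-type vehicle replicate 2, wild-type TCPOBOP replicate 1, humanized vehicle replicate 2 and humanized TCPOBOP replicates 1, 2, 3 and 4, with adjusted p from 0.0537 to 0.136 in the 9. Pklr, Thrsp and Fasn passed in each of the 16 fits that left out 1 library. The number of the 35 genes called was 8, 6 and 7 without humanized vehicle replicates 1, 3 and 4, where the calls over all genes fell from 2074 to 621, 770 and 794. It was 16 without humanized TCPOBOP replicate 1, with 3425 genes called over all.

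The annotated start regions of 5 of the 10 genes that were lower in humanized vehicle livers are shown to set the measured genes beside genomic sequence. Start regions of 31 of the 36 genes were matched by symbol in RefSeq (GRCm38.p6). Those of Scd1, Scd2, Fads1, Dgat1 and Dgat2 were not among them. The windows run from 250 bases before to 50 bases after the annotated start, 5′ to 3′ on the gene's strand, and capitals mark CCAAT (the NF-Y box) and AGGTCA (a nuclear receptor half-site) on either strand.
Fasn (chr11:120824498-120824797, minus strand): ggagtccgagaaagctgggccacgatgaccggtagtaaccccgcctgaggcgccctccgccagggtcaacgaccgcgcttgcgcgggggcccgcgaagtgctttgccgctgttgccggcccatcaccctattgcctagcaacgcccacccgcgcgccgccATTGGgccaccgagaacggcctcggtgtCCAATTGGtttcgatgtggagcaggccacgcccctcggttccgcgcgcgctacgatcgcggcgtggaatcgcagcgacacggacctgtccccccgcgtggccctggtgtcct
Thrsp (chr7:97417501-97417800, minus strand): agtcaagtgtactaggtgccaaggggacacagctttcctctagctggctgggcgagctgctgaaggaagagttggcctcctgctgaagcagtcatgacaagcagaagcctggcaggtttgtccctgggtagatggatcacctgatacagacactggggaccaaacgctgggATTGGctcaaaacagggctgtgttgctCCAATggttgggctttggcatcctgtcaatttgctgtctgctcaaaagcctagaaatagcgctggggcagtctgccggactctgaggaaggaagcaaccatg
Gpam (chr19:55127189-55127488, minus strand): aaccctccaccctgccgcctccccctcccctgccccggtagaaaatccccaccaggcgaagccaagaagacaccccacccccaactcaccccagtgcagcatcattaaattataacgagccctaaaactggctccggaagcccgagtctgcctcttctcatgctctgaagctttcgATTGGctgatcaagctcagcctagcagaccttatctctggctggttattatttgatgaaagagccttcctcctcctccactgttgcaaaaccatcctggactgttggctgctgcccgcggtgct
Pklr (chr3:89135892-89136191, plus strand): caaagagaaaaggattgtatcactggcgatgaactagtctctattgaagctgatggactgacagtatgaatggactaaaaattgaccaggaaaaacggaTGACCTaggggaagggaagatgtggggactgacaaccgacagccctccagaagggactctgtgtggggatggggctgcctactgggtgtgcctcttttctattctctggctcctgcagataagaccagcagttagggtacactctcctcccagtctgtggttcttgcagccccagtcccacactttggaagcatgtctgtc
Elovl6 (chr3:129532136-129532435, plus strand): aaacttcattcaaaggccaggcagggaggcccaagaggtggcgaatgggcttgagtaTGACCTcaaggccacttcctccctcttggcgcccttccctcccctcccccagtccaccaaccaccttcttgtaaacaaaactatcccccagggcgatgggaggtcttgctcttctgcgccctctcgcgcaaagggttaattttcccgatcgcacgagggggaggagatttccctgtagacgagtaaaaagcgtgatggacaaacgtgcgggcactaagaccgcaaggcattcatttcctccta

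The table's start lay 180 bases from the start of the transcript row used for Thrsp, 22 for Gpam and 0 for Fasn, Pklr and Elovl6. Pklr and Gpam each had 2 annotated starts, and the start nearest to that row is shown. Which start was used in these livers was not tested, so the Pklr and Gpam windows may not be the ones active in liver. In these windows Fasn, Thrsp and Gpam held CCAAT and no AGGTCA, while Pklr and Elovl6 held AGGTCA and no CCAAT. The lower genes whose windows are not shown did not divide in this way. Acaca, Me1, Agpat3 and Mid1ip1 held neither motif, and Acacb held both. The Fasn window held 3 matches to CCAAT, of which 2 lay on opposite strands and overlapped. Over the 31 genes with such a window, CCAAT was found in 15 (48.4%, against 37.4% of 32851 windows in the table) and AGGTCA in 9 (29.0%, against 16.3%). The E-box CACGTG was found in 4 (12.9%, against 7.15%), in Elovl5, Slc25a1, Plin2 and Lipe. TTGGCA, an NF1 half-site searched for comparison, was found in 3 (9.68%, against 14.1%). The sterol response element core TCACCCCAC was in 0 of 31, and in 0.551% of all windows. Only this exact string was searched, so the search cannot show that such elements are absent. Both strands were searched, and the matches describe letters in these windows only.

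Among desaturase and elongase genes, 1 of 7 differed between the vehicle-dosed strains (14.3%, near the 16.1% of all tested genes called in either direction). Elovl6, which extends palmitate to stearate, was at 159.6, 109, 95.8 and 187 CPM in wild-type and 85.2, 73.1, 66.2 and 66.6 CPM in humanized livers, without overlap (-0.92 ± 0.23, adjusted p = 0.0168). It lost its call without humanized vehicle replicates 3 (0.0527) and 4 (0.0525). Scd1 was nearly level at 6490.4 ± 2108 and 6205 ± 2289 CPM (-0.06 ± 0.44, adjusted p = 0.928), and Fads1 (0.06, adjusted p = 0.846), Scd2 (0.25, adjusted p = 0.585) and Elovl5 (0.26, adjusted p = 0.528) did not pass. The delta-6 desaturase gene Fads2 (-1.04, adjusted p = 0.0694) and Elovl2, an elongase gene for very long polyunsaturated chains (-0.46, adjusted p = 0.0899) had lower means in humanized livers and did not pass.

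Of the transcription factors, Mlxipl was higher in humanized vehicle livers. The row that represents it, 1 of 5 for this gene, is a RefSeq transcript annotated as non-coding. Mlxipl was at 629, 645, 455 and 479 CPM in wild-type and 1122, 692, 819.7 and 893 CPM in humanized livers. All humanized values lay above (0.68 ± 0.22, adjusted p = 0.0449). Its call was lost in 10 of the 16 fits that left out 1 library, in all but those without wild-type vehicle replicate 2, humanized vehicle replicate 2 and humanized TCPOBOP replicates 1, 2, 3 and 4, with adjusted p from 0.054 to 0.143 in the 10. Srebf1 was at 438 ± 329 and 237 ± 44.8 CPM (-0.89 ± 0.46, adjusted p = 0.178). Its humanized libraries, at 257, 285, 181 and 226 CPM, lay within the wild-type range. Pparg, the adipogenic regulator that is low in healthy liver, was at 6.59 ± 0.199 and 5.63 ± 0.567 CPM (-0.23, adjusted p = 0.375).

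Genes of triglyceride assembly moved in both directions between the strains. Gpam, which makes the committed first acylation of glycerol 3-phosphate in mitochondria (NM_001356285, chromosome 19, 55067635 to 55127319), was at 452, 561, 393 and 457 CPM in wild-type and 249, 304, 208 and 253 CPM in humanized vehicle livers (-0.88 ± 0.19, adjusted p = 0.00904). Agpat3, which adds the following fatty acid, was at 208, 249, 238 and 245 and 121, 151, 164 and 139.8 CPM (-0.71 ± 0.15, adjusted p = 0.00904). Dgat1, 1 of the 2 enzymes that close the triglyceride, was higher, at 16.7, 19.8, 18.2 and 16.9 and 28.2, 25.7, 33.4 and 29.5 CPM (0.70 ± 0.16, adjusted p = 0.0122). None of these 3 genes had overlapping groups, and each passed in all 16 fits that left out 1 library. The other closing enzyme, Dgat2, was at 719 ± 131 and 520.4 ± 63.4 CPM and did not pass (-0.47 ± 0.18, adjusted p = 0.0784), nor did Agpat2 (0.33), Lpin1 (-1.22, adjusted p = 0.0692, 4 of 4 humanized libraries below all wild-type ones) or Lpin2 (adjusted p = 0.998).

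At the droplet, 1 of 8 genes differed (12.5%, below the 16.1% of all tested genes called in either direction). G0s2, whose product inhibits the triglyceride lipase ATGL, was at 6.75, 6.95, 3.85 and 2.64 CPM in wild-type and 20.7, 6.87, 27.1 and 16.3 CPM in humanized vehicle livers. It was 3.54-fold higher (1.82 ± 0.48, adjusted p = 0.0196), and replicate 2 lay within the wild-type range. It lost its call without humanized vehicle replicates 1 (0.0582) and 3 (0.0646). The ATGL gene itself, Pnpla2, did not pass (-0.44, adjusted p = 0.218). Neither did the droplet coat genes Plin2 (0.17) and Plin5 (0.71, adjusted p = 0.108), the droplet fusion gene Cidec (0.16), the hormone-sensitive lipase gene Lipe (-0.33) or Pnpla3 (-1.24 ± 0.93, adjusted p = 0.353). The fatty acid uptake gene Cd36 was at 31.8, 29.2, 39.2 and 24.7 CPM in wild-type and 26.3, 18.6, 15.7 and 18.2 CPM in humanized livers (-0.66 ± 0.27, adjusted p = 0.0906).

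**Figure D3:**
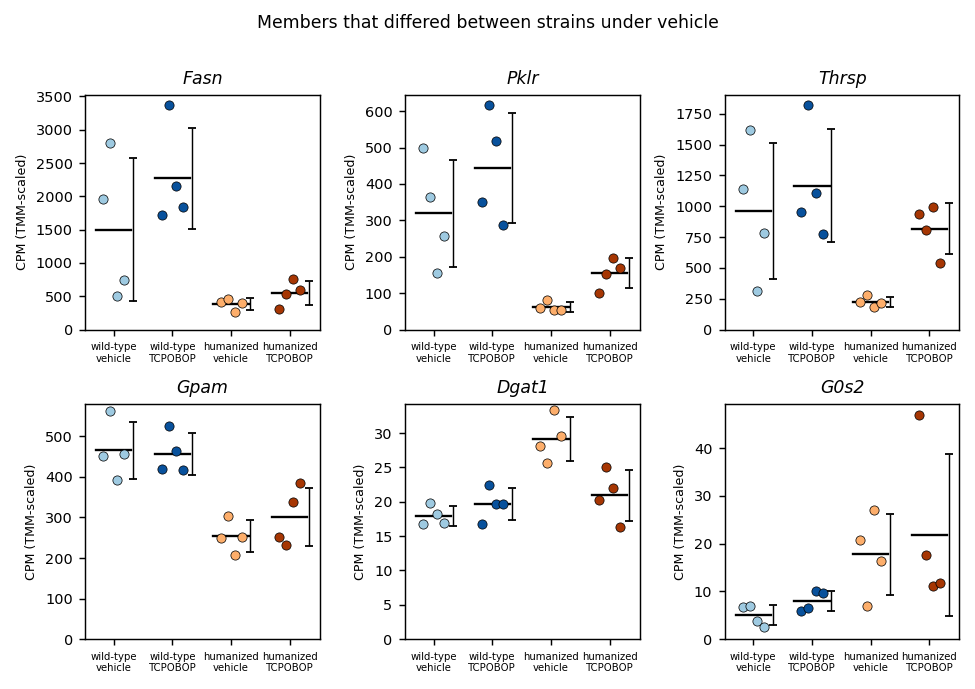
CPM (y axes, from 0) of 6 genes that differed between the strains under vehicle, in the 16 libraries (points), with the group mean (line) and SD (bar). Pklr, Thrsp, Fasn and Gpam lay lower in all humanized vehicle than in all wild-type vehicle livers, Dgat1 lay higher in all, and G0s2 lay higher in 3 of 4.

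Clock and macrophage genes differed between the same groups. Of 19 core clock and clock output genes, 4 were higher (21.1%) and 6 lower (31.6%) in humanized vehicle livers. The shares of all tested genes were 7.11% and 8.95%. Dbp, a clock output gene, was at 11.6 to 81.3 CPM in wild-type and 3.92 to 6.29 CPM in humanized vehicle livers. Of 11 Kupffer cell and macrophage markers, 8 were lower and none higher, with a summed level of 578 to 1306 CPM in wild-type and 295 to 526 CPM in humanized vehicle livers. No marker of that list was at 0 in all libraries. Alb, a hepatocyte marker, was lower (-0.78, adjusted p = 0.0386), as 1 of 8 in its list. Cela1, the 1 tested of 4 pancreatic acinar markers, was lower (-0.93, adjusted p = 0.03). Sox9, 1 of 4 cholangiocyte markers, was higher (1.37, adjusted p = 0.0198). Of 6 sinusoidal endothelium markers, 1 was lower by edgeR and 5 were called by DESeq2. All 6 had lower means and an unadjusted p under 0.05, and their sum was 281 to 502 CPM in wild-type and 155 to 182 CPM in humanized vehicle livers. Of 7 stellate cell markers, Reln (-1.12, adjusted p = 0.0288) and Col3a1 (-1.92, adjusted p = 0.0397) were lower, with sums of 227 to 369 and 196 to 206 CPM. The labels do not state the time of day, feeding, sex or age. The part of clock phase, feeding or cell composition in the differences above was not tested.

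In wild-type liver, TCPOBOP raised 3 and lowered 5 of the 35 genes. This comparison asks what the compound does where its receptor is the mouse protein. The 3 genes are 8.57% of the list, near the 8.10% of all tested genes that rose, and the 5 genes are 14.3%, against 4.99% of all tested genes that fell. The median change of the 35 genes was -0.02 on the log2 scale, as for all tested genes (-0.02). Fads1, Mid1ip1 and Elovl6 rose, and Elovl5, Plin5, Agpat2, Lipe and Agpat3 fell.

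Fads1, the delta-5 desaturase of polyunsaturated fatty acids (NM_146094, chromosome 19, 10182877 to 10196874), was at 612, 643, 599 and 584 CPM with vehicle and 1166, 1433, 1127 and 1158 CPM with TCPOBOP. All 4 TCPOBOP values lay above all vehicle values, a 2.00-fold rise (1.00 ± 0.20, adjusted p = 0.00212). Mid1ip1 was at 64.3, 44.4, 57.1 and 81.7 and 85.6, 148, 141 and 125 CPM, again without overlap (1.02 ± 0.23, adjusted p = 0.00521). Elovl6 rose from the vehicle values above to 192, 312, 222 and 294 CPM (0.89 ± 0.23, adjusted p = 0.0136). Its call was lost without wild-type vehicle replicate 3 (0.0534) and wild-type TCPOBOP replicate 4 (0.0514).

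The core synthesis genes did not pass in wild-type liver. Fasn was at 1499.5 ± 1076 CPM with vehicle and 2272 ± 755 CPM with TCPOBOP, with values of 1719, 3372, 2152 and 1847 CPM in the TCPOBOP livers (0.60 ± 0.42, adjusted p = 0.418). Only 1 of these 4 values lay above the vehicle range. Acaca (0.12 ± 0.21, adjusted p = 0.802), Acacb (0.16 ± 0.34), Acly (-0.07 ± 0.37), Acss2 (-0.02 ± 0.37) and Slc25a1 (0.05 ± 0.19) had changes smaller than or close to their SE. Me1 (0.66 ± 0.24, adjusted p = 0.0857), Pklr (0.47 ± 0.31) and Thrsp (0.27 ± 0.37) also did not pass. Srebf1 (-0.71 ± 0.46, adjusted p = 0.371), Mlxipl (0.05 ± 0.22) and Pparg (0.15 ± 0.17) did not pass either.

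Desaturation and elongation genes went separate ways under TCPOBOP. Elovl5, which elongates polyunsaturated fatty acids (NM_134255, chromosome 9, 77917365 to 77984519), was at 317, 261, 559 and 734 CPM with vehicle and 218, 267, 183 and 169.9 CPM with TCPOBOP. It fell 2.23-fold (-1.16 ± 0.28, adjusted p = 0.01), with 3 of 4 values below the vehicle range and replicate 2 just inside it. Scd1 was at 4591, 5935, 2845 and 2957 CPM with TCPOBOP, 6490.4 ± 2108 against 4082 ± 1471 CPM, and did not pass (-0.67 ± 0.44, adjusted p = 0.382). Scd2 (0.32), Elovl2 (-0.06) and Fads2 (-0.14) did not pass.

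Assembly and lipolysis genes made up the rest of the fall. Agpat3 was at 151, 186, 136 and 134 CPM with TCPOBOP, all below the vehicle values of 208 to 249 CPM (-0.63 ± 0.15, adjusted p = 0.00862). Agpat2, the acyltransferase whose loss causes lipodystrophy, was at 186, 234, 192 and 145 and 118, 124, 92.8 and 77.7 CPM (-0.88 ± 0.24, adjusted p = 0.0191), and lost its call without wild-type TCPOBOP replicates 3 (0.0679) and 4 (0.0816). Lipe was at 15.6, 21.98, 13.7 and 12.6 and 8.65, 11.1, 8.23 and 7.22 CPM (-0.86 ± 0.21, adjusted p = 0.00877). Plin5, a coat protein that links droplets to mitochondria, was at 42.6, 51.5, 35.9 and 27.8 and 25.8, 26.1, 16.2 and 12.1 CPM (-0.97 ± 0.30, adjusted p = 0.0397). The groups of these 4 genes did not overlap, which adds no support to their calls. Plin5 lost its call without wild-type vehicle replicates 1 (0.0787), 2 (0.0868) and 3 (0.0621). The call was also lost without wild-type TCPOBOP replicates 3 (0.129) and 4 (0.148) and humanized vehicle replicates 1 (0.0512) and 4 (0.0523). Without wild-type TCPOBOP replicate 4, 5 rather than 8 of the 35 genes passed, and 1068 rather than 1691 of all genes.

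Other genes of these groups did not pass in wild-type liver. Gpam (-0.03), Dgat1 (0.13) and Dgat2 (-0.16 ± 0.18, 644 ± 61.2 CPM with TCPOBOP) had small changes. Lpin1 (-0.56) and Lpin2 (-0.75, adjusted p = 0.07), which make diacylglycerol, had lower means. Cd36 (-0.38, adjusted p = 0.412), Plin2 (-0.34), Pnpla2 (-0.58), Cidec (0.93, adjusted p = 0.135) and G0s2 (0.68, adjusted p = 0.407) did not pass. Pnpla3 was at 18.2, 39.5, 37.7 and 30.5 CPM with TCPOBOP, all within the vehicle range (0.52 ± 0.89, adjusted p = 0.795).

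Some hepatocyte markers, 1 adipocyte marker and 1 pancreatic acinar marker moved in the same comparison. Of 8 hepatocyte markers 2 fell (25%, against 4.99% of all tested genes) and none rose. Of the 8, 6 had a log2 change below 0 and 2 above 0. Their summed level was 57721 to 96291 CPM with vehicle and 26460.1 to 41371 CPM with TCPOBOP. Alb, the albumin gene, fell to 16881 ± 4069 CPM from 49738 ± 14153 CPM (-1.56, adjusted p = 0.000271). Most of the drop of the hepatocyte sum lay in Alb. Apoa1, of the same list, was nearly level at 6978 ± 731 CPM with vehicle and 6423 ± 595 CPM with TCPOBOP. The summed level of 8 adipocyte markers was 19.3 to 26.9 CPM with vehicle and 6.65 to 11.4 CPM with TCPOBOP, without overlap. Of the 2 that were tested, Adrb3, a beta-adrenergic receptor gene, fell 7.04-fold (-2.82 ± 0.33, adjusted p = 1.55e-05). Most of the drop of the sum lay in Adrb3, at 13.8 ± 3.12 CPM with vehicle and 1.97 ± 0.822 CPM with TCPOBOP. Fabp4, of the same list, was nearly level at 7.35 ± 2.47 and 7.01 ± 1.36 CPM. Cela1, the 1 tested of 4 pancreatic acinar markers, was at 14.4 ± 4.87 CPM with vehicle and 5.73 ± 1.59 CPM with TCPOBOP (-1.34, adjusted p = 0.00222). Its interaction of strain and compound was 2.17 ± 0.38 (adjusted p = 0.00199). The part of these in the changes of the 8 genes was not tested.

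**Figure D4:**
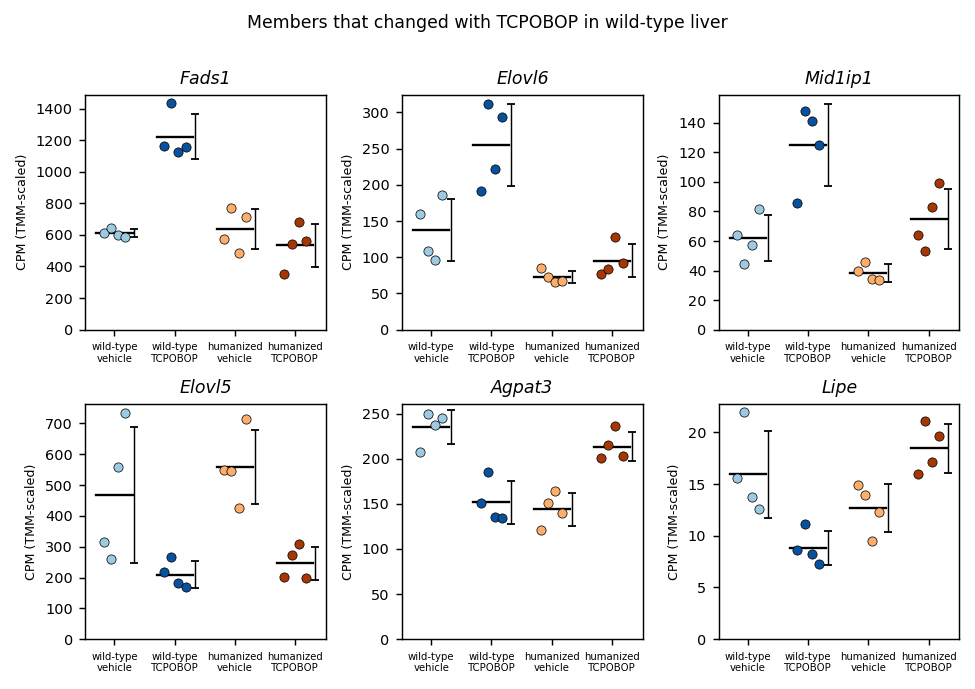
CPM (y axes, from 0) of 6 genes that passed the test for TCPOBOP in wild-type liver, in the 16 libraries (points), with the group mean (line) and SD (bar). Fads1, Elovl6 and Mid1ip1 lay higher in all 4 wild-type TCPOBOP than in all wild-type vehicle livers. Agpat3 and Lipe lay lower in all 4, and Elovl5 in 3 of 4.

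In humanized liver, TCPOBOP raised Thrsp, Pklr, Mid1ip1 and Pparg and lowered Elovl5. This comparison asks which of these genes respond where mouse CAR is low. The 4 and 1 genes are 11.4% and 2.86% of the 35, against 1.32% of all tested genes that rose and 1.19% that fell. The groups of all 5 genes did not overlap. This describes their libraries and adds no support to the calls, and it was not counted over all tested genes. The median change of the 35 genes was 0.25 on the log2 scale, against 0.02 for all tested genes.

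Thrsp moved furthest, from 222, 279.9, 187 and 214 CPM with vehicle to 937, 809, 995 and 536 CPM with TCPOBOP, a 3.63-fold rise (1.86 ± 0.38, adjusted p = 0.0169). Pklr rose 2.47-fold to 101, 152, 197 and 169 CPM (1.31 ± 0.32, adjusted p = 0.0399). Mid1ip1 was at 39.8, 45.9, 34.2 and 33.4 and 64.1, 53.6, 82.97 and 99.6 CPM (0.97 ± 0.23, adjusted p = 0.0352). These 3 genes were also lower in humanized than in wild-type vehicle livers, and both comparisons use the same 4 humanized vehicle libraries. With TCPOBOP, humanized livers held Thrsp at 819 ± 204 CPM and Pklr at 155 ± 40.5 CPM, where wild-type vehicle livers held 962 ± 553 and 319 ± 147 CPM.

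Pparg was at 5.18, 5.59, 6.45 and 5.32 CPM with vehicle and 9.45, 8.65, 10.04 and 8.53 CPM with TCPOBOP in humanized livers (0.71 ± 0.18, adjusted p = 0.0449). Elovl5 was at 550.4, 544, 426 and 716 and 201, 273, 309 and 200.1 CPM (-1.19 ± 0.28, adjusted p = 0.0379), a 2.28-fold fall beside the 2.23-fold fall in wild-type liver. Elovl5 and Mid1ip1 were the 2 genes of the list called for TCPOBOP in both strains, in the same direction in each.

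Each of these 5 calls was lost in some of the fits that left out 1 library. Thrsp lost its call without humanized vehicle replicates 1 (0.0695), 3 (0.0678) and 4 (0.0712). Pklr lost its call without wild-type TCPOBOP replicates 1 (0.0502) and 3 (0.0562), humanized vehicle replicates 1 (0.128), 3 (0.111) and 4 (0.13) and humanized TCPOBOP replicates 2 (0.0501), 3 (0.105) and 4 (0.0898), and Mid1ip1 lost its call without wild-type TCPOBOP replicates 3 (0.0507) and 4 (0.0507), humanized vehicle replicates 1 (0.104), 3 (0.0994) and 4 (0.124) and humanized TCPOBOP replicates 3 (0.083) and 4 (0.103). Elovl5 lost its call without wild-type TCPOBOP replicates 1 (0.0511) and 3 (0.053), humanized vehicle replicates 1 (0.102), 2 (0.0606), 3 (0.0577) and 4 (0.129) and humanized TCPOBOP replicates 2 (0.0523) and 4 (0.102). The call of Pparg was lost in 12 of the 16 fits that left out 1 library, in all but those without wild-type vehicle replicate 2, wild-type TCPOBOP replicate 2 and humanized TCPOBOP replicates 1 and 2, with adjusted p from 0.0519 to 0.148 in the 12. The number of the 35 genes called was 0 without humanized vehicle replicates 1, 3 or 4 (with 86, 109 and 74 genes called over all, against 325). It was 3 without humanized vehicle replicate 2. Leaving out humanized TCPOBOP replicates 2, 3 and 4 gave 3, 2 and 1 genes. Leaving out wild-type TCPOBOP replicates 1, 3 and 4, which enter through the shared estimate of spread, gave 2, 1 and 3. Without humanized TCPOBOP replicate 1 the number was 6, with 960 genes called over all, and without wild-type vehicle replicate 2 it was 7, with 685 over all. It was 3 when only humanized libraries were fitted.

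The other 30 tested genes did not pass in humanized liver. Fasn was at 384 ± 83.2 CPM with vehicle and 313, 534, 752 and 600.0 CPM with TCPOBOP, where 3 of 4 values lay above the vehicle range (0.52 ± 0.42, adjusted p = 0.561). Acaca was at 45.9 ± 6.10 CPM with TCPOBOP (0.19 ± 0.21) and Acly at 256 ± 113 CPM (-0.25 ± 0.38). Srebf1 was at 202, 166, 368 and 437 CPM (0.31 ± 0.46, adjusted p = 0.79) and Mlxipl at 773, 961, 464 and 575 CPM (-0.35 ± 0.22, adjusted p = 0.438). Scd2 was at 13.1, 17.8, 8.83 and 12.3 and 3.25, 6.98, 7.17 and 7.11 CPM, without overlap, and did not pass (-1.08 ± 0.32, adjusted p = 0.079). Scd1, with its lowest value of all 16 libraries in TCPOBOP replicate 1, had a change of -0.59 ± 0.44 (adjusted p = 0.517).

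Agpat3 was near the threshold in humanized liver, at 201, 215, 236 and 203 CPM with TCPOBOP against 121, 151, 164 and 139.8 CPM with vehicle, without overlap (0.57 ± 0.15, adjusted p = 0.0546). Dgat2 was at 661 ± 116 CPM (0.35 ± 0.18, adjusted p = 0.328) and Dgat1 at 20.9 ± 3.66 CPM (-0.48 ± 0.16, adjusted p = 0.12). Lpin1 was at 243, 206, 747 and 168 CPM, with replicate 3 alone far above the vehicle values of 123 to 212 CPM (0.85 ± 0.45, adjusted p = 0.336). G0s2 was at 46.96, 17.6, 11.2 and 11.9 CPM (0.30 ± 0.44), Cd36 at 20.8, 15.9, 36.9 and 35.6 CPM (0.47 ± 0.27, adjusted p = 0.378) and Pnpla3 at 6.05, 12.7, 4.20 and 1.07 CPM (-0.65 ± 0.98). Lipe was at 15.9, 21.1, 17.1 and 19.7 CPM, all above the vehicle values of 9.53 to 14.9 CPM, and did not pass (0.54 ± 0.21, adjusted p = 0.179). Plin2 had a change of 0.01 ± 0.21, and changes of the remaining tested genes lay between -0.47 (Agpat2) and 0.85 (Cidec).

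Clock genes moved with TCPOBOP in humanized liver too. Of 19 clock genes, 7 rose (36.8%) and 2 fell (10.5%) there, against 1.32% and 1.19% of all tested genes. In wild-type liver 1 fell (5.26%, near the 4.99% of all tested genes) and none rose. Dbp was at 3.92 to 6.29 CPM with vehicle and 20.1 to 106 CPM with TCPOBOP in humanized livers. In wild-type livers it was at 11.6 to 81.3 and 34.6 to 63.9 CPM. Of 11 Kupffer cell and macrophage markers, 0 passed for TCPOBOP in either strain by edgeR or by DESeq2, while 1 in wild-type and 2 in humanized liver had an unadjusted p under 0.05. Their summed level was 292 to 733 CPM in humanized TCPOBOP livers. Of 4 tested markers of monocyte-derived macrophages, all 4 had lower means with TCPOBOP in humanized liver (median log2 change -1.42), and 3 were called by DESeq2. By edgeR 1 was called, Ccr2 (-2.01, adjusted p = 0.0399), and the summed level of the list of 5 was 29.3 to 36.4 CPM with vehicle and 14.5 to 25.4 CPM with TCPOBOP. Of 7 stellate cell markers, 0 passed by edgeR and 2 by DESeq2, and 2 had an unadjusted p under 0.05. Their sum was 196 to 206 CPM with vehicle and 72.8 to 203 CPM with TCPOBOP. The part of these in the changes of Thrsp, Pklr, Mid1ip1, Pparg and Elovl5 was not tested.

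The TCPOBOP effect differed between the strains for 3 genes, Fads1, Agpat3 and Lipe. The test was the interaction of strain and compound, and a positive value means a higher change in humanized liver. The difference was positive for 2 genes (5.71%, against 3.48% of all tested genes) and negative for 1 (2.86%, against 3.98%), so these shares were near the background. Of 19 clock genes, 5 had a positive interaction (26.3%) and 0 a negative one. The part of clock phase, feeding or cell composition in the interactions of the 3 genes was not tested.

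Fads1 rose in wild-type liver, to 1221 ± 142 CPM, and was at 574, 768, 488 and 711 CPM with vehicle and 349, 542, 680.0 and 561 CPM with TCPOBOP in humanized liver (-0.25, adjusted p = 0.547). Its interaction was -1.26 ± 0.28 (adjusted p = 0.0104). Agpat3 fell in wild-type liver and had a change of 0.57 in humanized liver, which gave an interaction of 1.20 ± 0.21 (adjusted p = 0.00217). Lipe had an interaction of 1.39 ± 0.29 (adjusted p = 0.0068), from a fall in wild-type liver and a change of 0.54 in humanized liver. All 3 passed in each of the 16 fits that left out 1 library.

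Thrsp, which passed in humanized and not in wild-type liver, was not called as different between the strains (1.58 ± 0.52, adjusted p = 0.0749), nor was Pklr (0.83 ± 0.44, adjusted p = 0.297) or Pparg (0.56 ± 0.25, adjusted p = 0.2). Plin5 (0.60 ± 0.42, adjusted p = 0.457), Agpat2 (0.41 ± 0.33, adjusted p = 0.543) and Elovl6 (-0.50 ± 0.32, adjusted p = 0.405), which passed in wild-type and not in humanized liver, were not called either. Elovl5 (-0.03 ± 0.40) and Mid1ip1 (-0.04 ± 0.32) had interactions smaller than their SE. Fasn was at -0.08 ± 0.59, Srebf1 at 1.02 ± 0.65 (adjusted p = 0.394), Cd36 at 0.85 ± 0.37 and Scd2 at -1.39 ± 0.44 (adjusted p = 0.06). Of the 35 genes, 20 had changes of the same sign in both strains and 15 of opposite sign, where most of these changes did not pass.

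**Figure D5:**
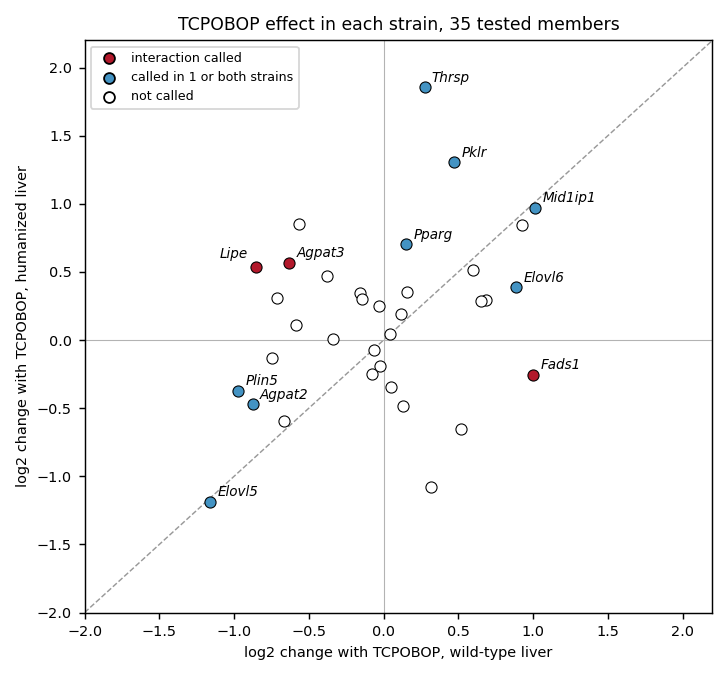
Log2 change with TCPOBOP in wild-type liver (x axis) and in humanized liver (y axis) of the 35 tested genes (points), with the line of equal change dashed. Fads1, Agpat3 and Lipe (red, interaction called) lie in the quadrants of opposite sign, while Elovl5 and Mid1ip1 lie near the dashed line.

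Other genes of the pathway, from lists not counted among the 36, moved as follows. The lists were written for this purpose with earlier results of these data known, so their shares are descriptions only. Of all tested genes, 8.10% rose and 4.99% fell with TCPOBOP in wild-type liver, and 1.32% rose and 1.19% fell in humanized liver. Between the vehicle-dosed strains 7.11% of all tested genes were higher and 8.95% lower in humanized livers. Of 16 genes that supply carbon and NADPH, 5 rose (31.2%) and 1 fell (6.25%) with TCPOBOP in wild-type liver. In humanized liver 1 rose (6.25%), and 4 (25%) were lower in humanized vehicle livers. The pentose phosphate gene Pgd (1.17, adjusted p = 0.00198), citrate synthase Cs (0.67) and Pdhb of pyruvate dehydrogenase (0.86) were among those that rose in wild-type liver. The hepatic glucose transporter gene Slc2a2 was at 257 ± 74.6 and 88.9 ± 23.2 CPM in wild-type and at 32.6 ± 3.35 and 197 ± 103 CPM in humanized livers, vehicle before TCPOBOP. It was the gene of the list that fell in wild-type liver (-1.53), named here after its values were seen. It rose 6.04-fold in humanized liver (2.59 ± 0.34, adjusted p = 0.00116), and its interaction was 4.12 ± 0.47 (adjusted p = 4.27e-05).

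Of 26 regulators of lipogenic transcription, 1 rose (3.85%) and 3 fell (11.5%) with TCPOBOP in wild-type liver. In humanized liver 0 passed by edgeR and 1 by DESeq2, while 4 had an unadjusted p under 0.05. Between the vehicle-dosed strains 1 was higher (3.85%) and 3 lower (11.5%). Scap, the escort of SREBP, was lower in humanized vehicle livers (-0.87, adjusted p = 0.0217) and fell in wild-type liver (-0.83, adjusted p = 0.0226). The insulin receptor substrate gene Irs1 rose (0.82) and Irs2 fell (-1.96, adjusted p = 0.012) in wild-type liver. The coactivator gene Ppargc1b had an interaction of 2.59 ± 0.61 (adjusted p = 0.0138).

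Of 17 tested further glycerolipid enzymes, 2 rose (11.8%) and 1 fell (5.88%) in wild-type liver, shares near those of all tested genes. In humanized liver 1 rose and 1 fell (5.88% each), and 2 were higher and 2 lower between the strains (11.8% each). Gpd1, which makes glycerol 3-phosphate for the reaction of Gpam, was at 501 ± 10.2 and 245 ± 39.7 CPM in wild-type and 222 ± 37.2 and 394 ± 47.1 CPM in humanized livers. It fell in wild-type liver (-1.03, adjusted p = 0.000301) and rose in humanized liver (0.83, adjusted p = 0.0151), with an interaction of 1.86 ± 0.23 (adjusted p = 0.000127). Chka, the choline kinase of phosphatidylcholine synthesis, was 6.66-fold higher in humanized vehicle livers (2.74, adjusted p = 0.000937) and fell 4.41-fold there with TCPOBOP (adjusted p = 0.00861).

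Of 23 tested further droplet, lipolysis and secretion genes, 3 rose (13%) and 7 fell (30.4%) with TCPOBOP in wild-type liver. In humanized liver 2 rose (8.7%), and 4 were higher (17.4%) and 3 lower (13%) between the strains. Abhd5, the coactivator of ATGL, rose in wild-type liver (1.07, adjusted p = 8.02e-05), and the droplet gene Fitm1 fell 3.99-fold (adjusted p = 0.000448). Mgll, the monoacylglycerol lipase gene, rose in humanized liver (0.98, adjusted p = 0.0131) and fell in wild-type liver (-0.92, adjusted p = 0.00286), with an interaction of 1.91 ± 0.27 (adjusted p = 0.000415). Mttp, which loads lipid onto apolipoprotein B, rose in humanized liver (0.82, adjusted p = 0.0416) and in wild-type liver (0.77, adjusted p = 0.0151). The wild-type values of Mgll and Mttp are given after they were seen. Plin4 was 4.58-fold higher in humanized vehicle livers (adjusted p = 0.0121). Of 18 tested genes of acyl-CoA synthesis, fatty acid uptake and elongation, 3 rose (16.7%) and 2 fell (11.1%) in wild-type liver. In humanized liver 1 rose (5.56%), and 1 was higher (5.56%) and 2 lower (11.1%) between the strains. Cyb5a, which passes electrons to desaturases, rose in wild-type liver (1.17, adjusted p = 0.000363), and the uptake gene Slc27a2 fell (-1.14, adjusted p = 0.00166) with an interaction of 1.64 ± 0.31 (adjusted p = 0.00324).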

How the data were processed

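Liver RNA was sequenced in 16 libraries, 4 per group. The values are whole-number counts per RefSeq transcript as deposited by the authors. STAR, DESeq2 and the mouse build mm10 are named in the submitters' processing notes. The counting program, its annotation, strand setting and treatment of reads with several matches are not stated there. Of counts of 20 or more, 74.9% were even, so 1 count may not stand for 1 fragment. The 40458 accessions were joined to 24970 gene symbols, and the row with the highest mean count represented each gene.

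Counts were tested with edgeR 4.0.16 (R 4.3.3): filterByExpr, TMM factors, and glmQLFit and glmQLFTest on 1 mean per group over all 16 libraries, with 12 residual degrees of freedom. Adjusted p-values are Benjamini-Hochberg values over 12913 genes, the threshold was 0.05, and the SE was the size of the log2 change divided by the square root of F. The calculation was tested on simulated data. No column of the table was left unused.

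Alternatives were RLE factors, DESeq2 1.42.0, no filter, only the groups compared, a replicate block, mean rows, thinned wild-type TCPOBOP libraries, and each library left out. All 36 genes are named, with library values for called genes in the comparison that called them, and library values or group means for 10 genes fixed by name. Of other pathway genes, at most the 3 called with the smallest p per list and comparison are named, except where stated. The genes and lists were chosen with earlier results of these data known.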

Additional observations from a re-analysis of the deposited data

Results flagged for a closer look

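In 6 of 141 sets of 4 libraries, 1 library lay far from the other 3 by Dixon's test at 95%, and chance flags about 1 set in 20. Scd2 was at 3.25 CPM in humanized TCPOBOP replicate 1, where the others were at 6.98 to 7.17 CPM. Fads1 was at 1433 CPM (1.43e+03) in wild-type TCPOBOP replicate 2, above the other 3 at 1127 to 1166 CPM. Pnpla2 was at 145 CPM in wild-type vehicle replicate 2, against 62.3 to 76.2 CPM. Humanized vehicle replicate 3 was low for Pnpla3 (2.8 CPM, the others 11.1 to 11.9 CPM) and for Lpin1 (123 CPM, the others 208 to 212 CPM). Lpin1 was at 747 CPM in humanized TCPOBOP replicate 3, against 168 to 243 CPM.

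The TCPOBOP effect differed between the strains for 3 genes by the interaction test of edgeR. The difference, humanized minus wild-type on the log2 scale, was -1.26 for Fads1, 1.2 for Agpat3 and 1.39 for Lipe.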

How the results depend on the processing

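Of 3185 alternative values of single genes, 3056 stayed on their side of the threshold, 32 newly passed and 97 no longer passed. No called value changed direction. Of the 3056, 108 values called in neither fit changed sign, over 33 of 140 gene and comparison pairs. For TCPOBOP in humanized liver, 5 genes were called, against 3 with only humanized libraries, 1 with a replicate block and 0 to 7 with 1 library left out. For the interaction, 3 were called and DESeq2 called 5. For TCPOBOP in wild-type liver, leaving out 1 library gave 5 to 9 genes in place of 8, with 5 without wild-type TCPOBOP replicate 4. Between the strains it gave 6 to 16 in place of 13. DESeq2 called 18 genes between the strains, 9 in wild-type and 7 in humanized liver. The replicate block gave 8 genes in wild-type liver, 3 for the interaction and 12 between the strains. Replicate numbers were not taken to pair the libraries, since same-numbered deviations correlated at -0.244 to 0.581 and not every library correlated best with its own number. Thinning the deeper wild-type TCPOBOP libraries to the median depth of the others left 8 genes called in wild-type liver. Mogat1, with 23 counts, did not reach the depth needed for a test.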
